A study of Mus musculus with 23 samples.

Results

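The comparison described here is that of bone marrow-derived macrophages given oleic acid (OA) for 5 h against macrophages given the albumin vehicle (BSA). It rests on 7 of the 23 expression microarrays of the study, 4 of OA and 3 of BSA, chosen by their sample titles, and covers all 19938 genes that were measured by a probe set with a single gene symbol. Macrophages were grown from the bone marrow of wild type C57Bl/6 mice for 6 days in 10 ng/mL M-CSF, the growth factor that drives their differentiation. The adherent cells were treated 1 to 3 days after M-CSF had been removed. OA cells received 250 µM oleic acid bound to fatty acid-free, low-endotoxin albumin at 2 molecules of fatty acid per albumin. BSA cells received 125 µM of the same albumin without fatty acid. The sample labels give 5 h for both groups, whereas the series text gives 4 h for the vehicle and for LPS, so a difference of 1 h in duration between the groups cannot be told apart from the fatty acid. The treatment protocol speaks of replicate wells and the series text of biological replicates. Unless stated otherwise, each p-value below is set against the scatter within groups, pooled over all 23 arrays in 6 groups. Part of that scatter may be technical rather than between cultures. The study also holds 4 arrays each of stearic acid (SA, 250 µM) at 5 h, SA at 20 h, OA at 20 h and lipopolysaccharide (LPS, 1 ng/mL) at 5 h.

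Oleic acid is a fatty acid with a single double bond and a major component of dietary and stored fat. Stearic acid has the same chain length and no double bond. In cells, incoming fatty acids are activated to acyl-CoAs and are either stored as triglyceride in lipid droplets or burned in mitochondria. Fatty acids and their derivatives are ligands of the PPAR nuclear receptors, which switch on genes of fatty acid handling, while the SREBP transcription factors drive the genes of sterol and fatty acid synthesis and are held back in the endoplasmic reticulum by INSIG proteins when sterols are plentiful. In macrophages, NF-kB and interferon signalling drive chemokine and antiviral genes, and these programmes respond strongly to LPS.

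All values below are log2 expression levels, on which a difference of 1 is a 2-fold change. About 10 ng of RNA per sample had been amplified before hybridisation. Array medians lay between 3.98 and 4.12 over the 23 arrays, and no 2 arrays held identical values. The macrophage label was borne out by the level of its markers. Lyz2 averaged 12.02 ± 0.04 in OA and 12.09 ± 0.06 in BSA arrays (SD, n = 4 and 3 here and below), Cd68 11.42 ± 0.02 and 11.46 ± 0.03, Adgre1 (F4/80) 10.46 ± 0.07 and 10.59 ± 0.01, and Csf1r, the M-CSF receptor, 10.24 ± 0.01 and 10.21 ± 0.02. Markers of other cell types (stromal, mast and basophil, erythroid, lymphoid, neutrophil and dendritic) numbered 69 measured genes. Of these, limma's test called 0 between OA and BSA, beside 0.0702% of all genes. An unadjusted p under 0.05 was seen for 2 of them, beside 5.66% of all genes. The neutrophil-associated genes S100a8 (11.29 in OA, 11.37 in BSA) and S100a9 (10.81 in OA, 10.92 in BSA) were high in both groups. The neutrophil granule genes Elane (3.84 and 3.76) and Mpo (4.61 and 4.52) and the surface marker Ly6g (2.68 and 2.58) were low in both. In RNA from whole cultures, fewer cells of a type and less RNA per cell cannot be told apart.

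Few genes passed the test between OA and BSA. Of 19938 genes, 14 (0.0702%) passed an adjusted p of 0.05 against BSA, of which 4 (0.0201%) rose and 10 (0.0502%) fell. The risen genes were Angptl4, Cpt1a, Plin2 and Slco2b1. The fallen genes were Saa3, Scd2, Ccl5, Ccl4, Insig1, Idi1, Mx1, Ccl3, Cyp51 and Hmgcs1. Absolute log2 differences ran from 0.495 to 1.108 among them, and 1 gene, Angptl4, changed at least 2-fold. In each of the 14 genes no OA array overlapped a BSA array. Over all genes, OA arrays lay wholly above BSA arrays in 3.52% and wholly below in 3.5%. At an unadjusted p under 0.05, 1128 genes (5.66%) differed, 571 higher (2.86%) and 557 lower (2.79%). The median difference over all genes was 0.00 and its median standard error 0.13. The 95% interval of the difference lay between -1 and 1 for 99.8% of genes and between -0.5 and 0.5 for 82.8%, so a change of 2-fold or more lay outside the interval for nearly all genes, whereas smaller changes did not for a sizeable part. The number of fallen genes was 4 without the BSA replicate 3 array and 6 without the BSA replicate 2 or the OA replicate 2 array, and the number of risen genes was 7 without the OA replicate 1 array. With a variance trend and robust moderation together, 8 genes rose and 21 fell. When the spread was taken from the 7 compared arrays alone, 4 rose and 3 fell.

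**Figure D1:**
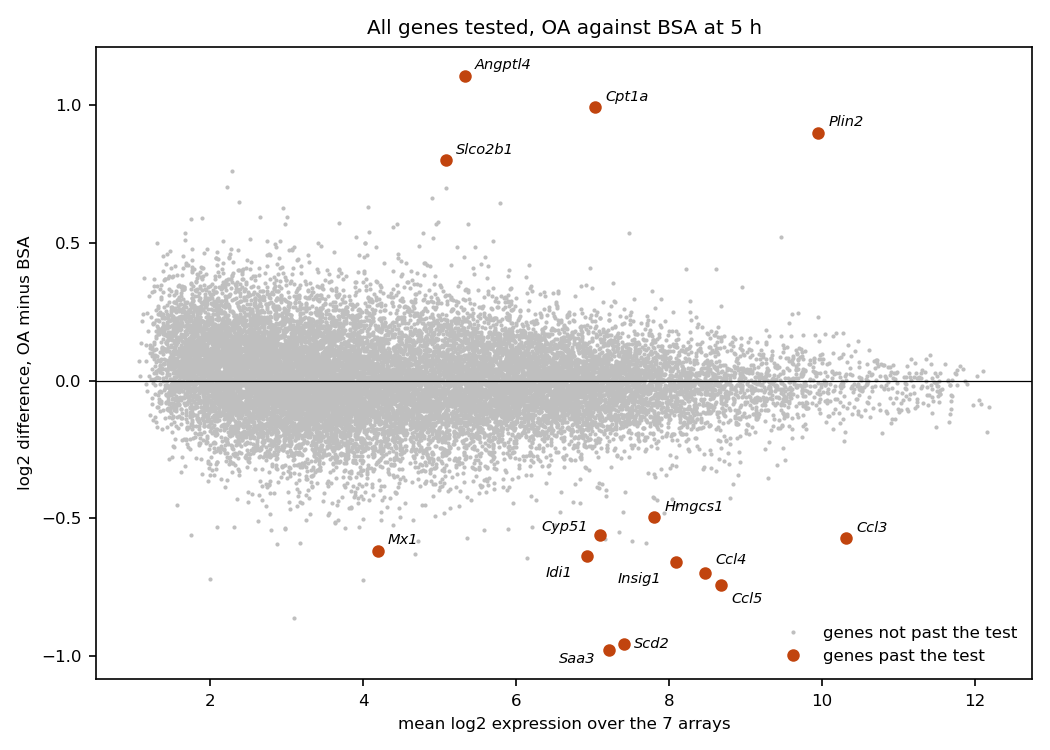
Each point is a gene, placed by its mean log2 expression over the 4 OA and 3 BSA arrays (x axis) and its log2 difference OA minus BSA (y axis). The 14 genes past the test are filled and named; 4 lie above 0 and 10 below.

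Of the 4 risen genes, 3 belong to fatty acid storage, oxidation and PPAR-linked lipid handling. Plin2 (chr4:86626910-86670217, RefSeq, GRCm38.p6, as for all positions here) encodes perilipin 2, the main coat protein of lipid droplets in macrophages. Its levels were 10.26, 10.33, 10.40 and 10.37 in the OA arrays, against 9.36, 9.51 and 9.45 in the BSA arrays. Every OA array stood above every BSA array, and the spread within each group was small beside the gap. The difference was 0.90 ± 0.08 (SE; 1.87-fold; adjusted p 2.08e-06, limma, as for all adjusted p-values here), the smallest adjusted p of the comparison.

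Cpt1a (chr19:3322326-3385735), carnitine palmitoyltransferase 1A, catalyses the entry of long-chain fatty acids into mitochondria. It had 7.43, 7.51, 7.40 and 7.47 in OA arrays and 6.43, 6.48 and 6.47 in BSA arrays. The groups were tight and did not overlap, and the difference was 0.99 ± 0.10 (SE; 1.99-fold; adjusted p 4.59e-06). Angptl4 (chr17:33774900-33781575), a secreted inhibitor of lipoprotein lipase and a classical PPAR target, had 6.03, 5.88, 5.79 and 5.51 in OA arrays and 4.85, 4.5 and 4.73 in BSA arrays. The OA arrays spread more here than for the other risen genes, with replicate 4 lowest, but all stood above the BSA arrays. Angptl4 had the highest difference of the comparison, 1.11 ± 0.13 (SE; 2.15-fold; adjusted p 8.14e-05).

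Slco2b1 (chr7:99657804-99711340), an organic anion transporter of the plasma membrane, belonged to none of the gene lists. Its levels were 5.43, 5.33, 5.36 and 5.57 in OA arrays and 4.63, 4.60 and 4.63 in BSA arrays, without overlap. The difference was 0.80 ± 0.14 (SE; 1.74-fold; adjusted p 0.00989). Its call was the least stable among the risen genes: the adjusted p was 0.07, 0.0862 and 0.0797 without BSA replicates 1, 2 and 3, and 0.0582 without OA replicate 4.

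**Figure D2:**
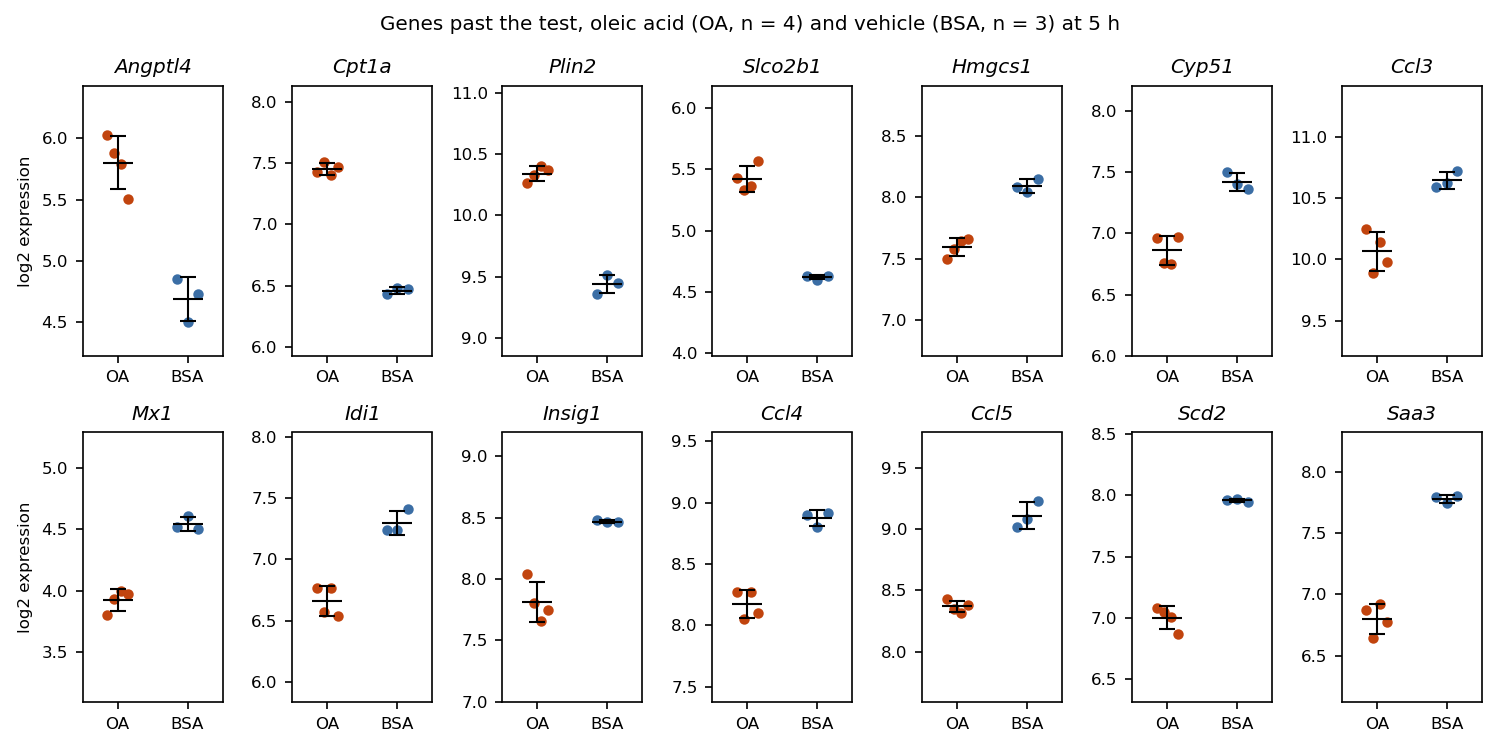
Log2 expression (y axis) in each OA array (left, n = 4) and each BSA array (right, n = 3) for the 14 genes past the test, with mean and SD as bars; every y axis spans the same 2.2 log2 units. The largest difference between group means is that of Angptl4, and no gene has overlapping groups.

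Most other members of the lists that hold these genes did not pass. Among 34 measured PPAR targets and fatty acid oxidation genes, 2 rose (Cpt1a and Angptl4), beside 0.0201% of all genes, none fell, and the median difference was 0.05, beside 0.00 over all genes. Above 0 were 25 of the 34, and in 6 of them every OA array stood above every BSA array, beside 3.52% of all genes. The mitochondrial thiolase gene Acaa2 (0.35 ± 0.14 SE, adjusted p 0.799), the peroxisomal gene Pex11a (0.54 ± 0.16 SE, adjusted p 0.449) and the very long-chain acyl-CoA dehydrogenase gene Acadvl (0.14 ± 0.08 SE, adjusted p 0.94) did not pass. Cd36, the scavenger receptor that takes up fatty acids, averaged 11.45 ± 0.10 in OA and 11.39 ± 0.09 in BSA arrays, a difference of 0.06 with a 95% interval of -0.12 to 0.24. Pparg itself differed by -0.01 (interval -0.20 to 0.18). Pdk4, a PPAR target in many tissues, lay near the bottom of the scale in both groups, at 2.52 in OA and 2.40 in BSA arrays.

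Among 24 lipid droplet and triglyceride genes, 1 rose (Plin2), beside 0.0201% of all genes, none fell, and the median difference was 0.07. In 3 of the 24 every OA array stood above every BSA array, beside 3.52%. Hilpda, an inhibitor of the triglyceride lipase ATGL, had 6.25, 5.82, 5.96 and 6.21 in OA arrays and 5.42, 5.32 and 5.51 in BSA arrays. The groups did not overlap, but the difference of 0.65 ± 0.15 (SE) had an adjusted p of 0.179. Pnpla2, which encodes ATGL, likewise had non-overlapping arrays and a difference of 0.41 ± 0.10 (SE; adjusted p 0.282). The other perilipins, Plin3, Plin4 and Plin5, differed by 0.01, 0.07 and -0.12, with adjusted p-values of 1.0, 0.995 and 0.989.

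A further part of the response lay in sterol synthesis. Of 18 measured enzymes of the pathway, 3 fell (Idi1, Cyp51 and Hmgcs1), beside 0.0502% of all genes. None rose, and the median difference was -0.34. All 18 differences were below 0, beside 49.9% of all genes. At an unadjusted p under 0.05, 13 of the 18 were lower, beside 2.79% of all genes, and in 10 of the 18 every OA array stood below every BSA array, beside 3.5%. The mean level of the 18 genes ran from 6.29 to 6.51 in OA arrays and from 6.70 to 6.75 in BSA arrays, and each OA array taken alone had a median difference from the BSA mean between -0.40 and -0.22. Members of a pathway are not independent replicates, and all lists here were chosen with earlier results of these data known. These shares describe the list and are not a test of it.

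Hmgcs1 (chr13:119690351-119708260), HMG-CoA synthase, supplies the substrate of HMG-CoA reductase at the head of the mevalonate pathway. It had 7.50, 7.58, 7.64 and 7.66 in OA arrays and 8.08, 8.04 and 8.15 in BSA arrays, with a difference of -0.495 ± 0.096 (SE; 1.41-fold lower; adjusted p 0.0433). Idi1 (chr13:8885606-8892396), isopentenyl diphosphate isomerase, comes later in that pathway, and had 6.77, 6.57, 6.77 and 6.54 in OA arrays and 7.24, 7.24 and 7.41 in BSA arrays. The groups were well apart in both genes, and the difference for Idi1 was -0.64 ± 0.11 (SE; 1.56-fold lower; adjusted p 0.01). A further probe set of Idi1 gave -0.70 with an adjusted p of 0.0934, and whether both probe sets read the same locus was not tested. Cyp51 (chr5:4080674-4104697), lanosterol demethylase, acts on the first sterol of the pathway. Its levels were 6.96, 6.76, 6.75 and 6.97 in OA arrays and 7.50, 7.40 and 7.36 in BSA arrays, a difference of -0.56 ± 0.11 (SE; 1.48-fold lower; adjusted p 0.045). These 3 calls lay close to the threshold. Leaving out any of the 7 arrays took Cyp51 to an adjusted p between 0.0519 and 0.299 and Hmgcs1 to one between 0.0706 and 0.335, and Idi1 passed in 3 of 7 such fits, its highest adjusted p being 0.135 without BSA replicate 3.

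The rest of the pathway gave values that did not pass over all genes. Lanosterol synthase, Lss, averaged 4.41 ± 0.16 in OA and 5.04 ± 0.04 in BSA arrays (difference -0.63, adjusted p 0.26). Sc5d, a late desaturase of the sterol ring, averaged 7.66 ± 0.03 in OA and 8.09 ± 0.15 in BSA arrays (-0.43, adjusted p 0.0979). Sqle, squalene epoxidase, averaged 7.01 ± 0.10 in OA and 7.41 ± 0.04 in BSA arrays (-0.40, adjusted p 0.452). In all of them the groups did not overlap. At the other end of the list, Ebp and Ggps1 differed by -0.02 and -0.04.

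Insig1 (chr5:28071412-28078662) encodes the protein that retains SREBPs in the endoplasmic reticulum and is itself an SREBP target. It had 8.04, 7.80, 7.66 and 7.75 in OA arrays and 8.48, 8.46 and 8.46 in BSA arrays. All OA arrays were lower, replicate 1 least so, and the difference was -0.66 ± 0.10 (SE; 1.58-fold lower; adjusted p 0.00276). It was the 1 gene of 13 SREBP regulators and sterol uptake genes to fall, beside 0.0502% of all genes. None of the 13 rose, and the list median was 0.01. The transcription factor genes Srebf1 and Srebf2 differed by 0.05 (95% interval -0.14 to 0.24) and -0.11 (-0.30 to 0.08), and Stard4, a sterol transfer protein, by -0.37 (adjusted p 0.449).

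Scd2 (chr19:44293676-44306864), a stearoyl-CoA desaturase, belongs to the enzymes that make oleoyl-CoA, the activated form of OA. Its levels were 7.08, 7.05, 7.01 and 6.87 in OA arrays and 7.96, 7.97 and 7.95 in BSA arrays. The BSA arrays were almost identical and all OA arrays lay below them, with a difference of -0.96 ± 0.11 (SE; 1.94-fold lower; adjusted p 8.14e-05). Scd2 was the 1 gene of 22 in the fatty acid synthesis, elongation and desaturation list to fall, beside 0.0502% of all genes. None rose. The list median was -0.09, and 17 of the 22 differences were below 0, beside 49.9% of all genes. Its paralogue Scd1 lay low in both groups, at 2.63 in OA and 2.96 in BSA arrays (-0.33, adjusted p 0.94). Fads2, a desaturase of polyunsaturated fatty acids, had a difference of -0.45 (adjusted p 0.74), and Fasn, fatty acid synthase, one of -0.24 (adjusted p 0.799).

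The promoters of the fallen SREBP-pathway genes were read because these genes are described as SREBP targets; the 250 bases before the start site are shown, 5′ to 3′ on the gene's strand (RefSeq, GRCm38.p6). They lie at chr13:119690101-119690350 (plus strand) for Hmgcs1, chr13:8885356-8885605 (plus) for Idi1, chr5:4104698-4104947 (minus) for Cyp51 and chr5:28071162-28071411 (plus) for Insig1, and no window for Scd2 was used here. Capitals mark matches on either strand to the sterol regulatory element TCACNCCAC and to the CCAAT box, the site of NF-Y, a known partner of SREBPs.
Hmgcs1: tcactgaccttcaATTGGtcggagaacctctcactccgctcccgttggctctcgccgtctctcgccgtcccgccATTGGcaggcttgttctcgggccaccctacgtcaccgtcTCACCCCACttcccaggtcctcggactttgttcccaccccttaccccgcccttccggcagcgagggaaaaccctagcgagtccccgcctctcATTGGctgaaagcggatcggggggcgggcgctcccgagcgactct
Idi1: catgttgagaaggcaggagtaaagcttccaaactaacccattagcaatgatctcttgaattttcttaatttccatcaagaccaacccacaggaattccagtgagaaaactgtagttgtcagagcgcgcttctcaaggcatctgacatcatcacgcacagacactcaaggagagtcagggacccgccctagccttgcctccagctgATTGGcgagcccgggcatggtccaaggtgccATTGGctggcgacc
Cyp51: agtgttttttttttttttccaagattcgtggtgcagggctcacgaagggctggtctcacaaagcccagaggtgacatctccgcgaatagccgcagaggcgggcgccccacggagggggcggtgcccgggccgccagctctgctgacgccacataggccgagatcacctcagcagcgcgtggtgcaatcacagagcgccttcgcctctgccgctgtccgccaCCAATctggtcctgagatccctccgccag
Insig1: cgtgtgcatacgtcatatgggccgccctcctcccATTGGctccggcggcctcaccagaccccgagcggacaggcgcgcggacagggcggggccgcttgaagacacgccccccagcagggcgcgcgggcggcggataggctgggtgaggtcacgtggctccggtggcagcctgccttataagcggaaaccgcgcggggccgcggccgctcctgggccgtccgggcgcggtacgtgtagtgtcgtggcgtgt
The sterol regulatory element occurred in 218 of 15614 tested genes with a window of 250 bases before and 50 after the start (1.4%), among them Hmgcs1, where it begins at position -137, and Saa3. It was in 1 of the 15 windows of the sterol synthesis list, that of Hmgcs1, and in 0 of the 11 windows of the SREBP regulators. A CCAAT box occurred in 6509 such windows (41.7%) and in 15 of the 15 windows of the sterol synthesis list, and also in 15 of 18 windows of the endoplasmic reticulum chaperones and 22 of 27 of the cell cycle genes. In the 28 windows of the PPAR list, the PPAR response element of the DR1 type, a direct repeat of the half-site AGGNCA with any 1 base between the copies, was searched on both strands; it occurred in 0.41% of all windows and in 0 of these 28. In the 28 windows of the NF-kB list, the NF-kB site, searched on both strands as GGGA, any base and TTTCC, occurred in 6 (Cxcl1, Cxcl2, Cxcl3, Il6, Nfkb2 and Nfkbia), beside 0.512% of all windows. None of these 6 genes passed the test. Of the 14 called genes, 9 had a window, and the site was in 0 of these 9. Angptl4, Ccl4, Ccl5, Mx1 and Scd2 had no window, so their promoters were not searched for any of these motifs. These are matches of letters in a short window and say nothing about binding.

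**Figure D3:**
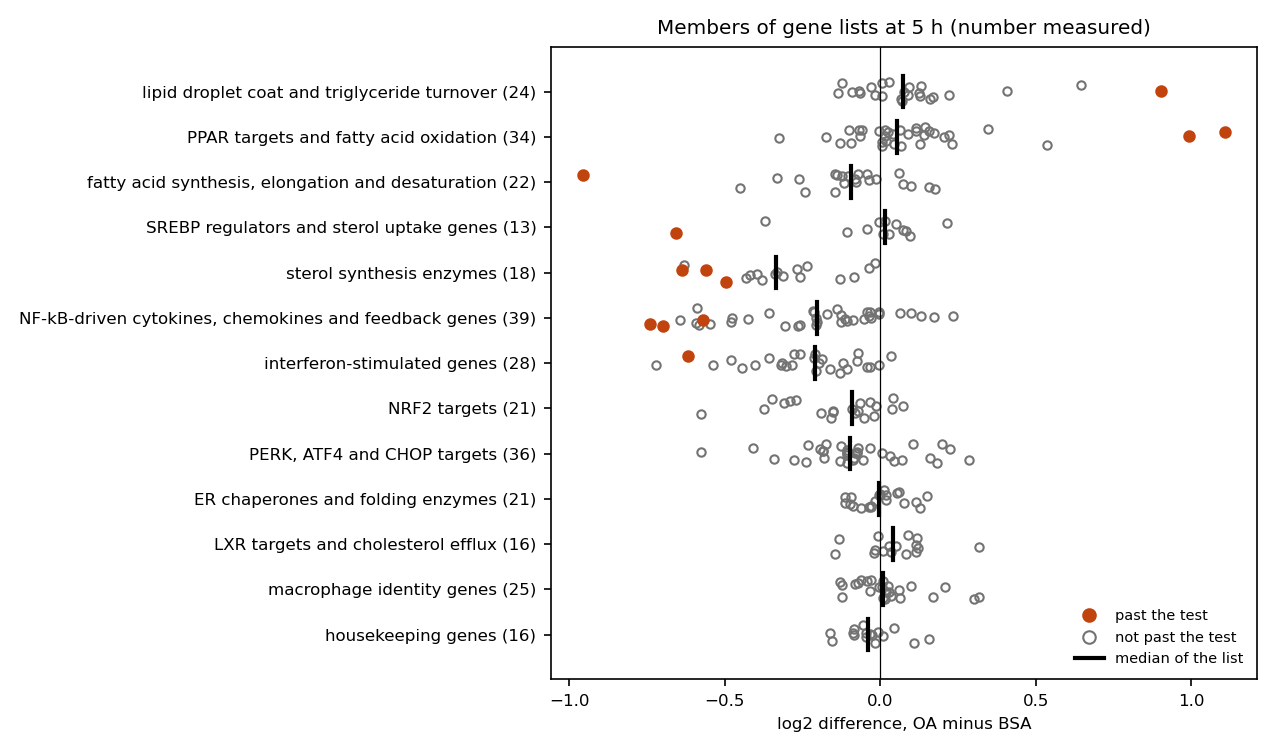
Log2 difference OA minus BSA (x axis) for each measured member of 13 gene lists (rows, number of members in brackets). Filled points are genes past the test and bars are list medians; the sterol synthesis list lies wholly below 0, with a median of -0.34.

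Chemokine genes made up 3 of the 10 fallen genes. Of 39 NF-kB-driven cytokine, chemokine and feedback genes, 3 fell (Ccl5, Ccl4 and Ccl3), beside 0.0502% of all genes. None rose, and the median difference was -0.20. Below 0 were 34 of the 39, beside 49.9% of all genes, and 18 were lower at an unadjusted p under 0.05, beside 2.79%. In 17 of the 39 every OA array lay below every BSA array, beside 3.5% of all genes. The mean level of the list ran from 6.50 to 6.58 in OA arrays and from 6.76 to 6.77 in BSA arrays.

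The fallen members are CC chemokines of one cluster on chromosome 11 that attract monocytes and T cells. Ccl5 (chr11:83525778-83530518), RANTES, had 8.43, 8.35, 8.32 and 8.38 in OA arrays and 9.02, 9.08 and 9.23 in BSA arrays, a difference of -0.74 ± 0.10 (SE; 1.67-fold lower; adjusted p 0.000346). The OA arrays lay close together and clear of the BSA arrays. Ccl4 (chr11:83648624-83664683), MIP-1β, had 8.27, 8.05, 8.27 and 8.10 in OA arrays and 8.90, 8.80 and 8.92 in BSA arrays, a difference of -0.70 ± 0.11 (SE; 1.62-fold lower; adjusted p 0.00335). Ccl3 (chr11:83647843-83649378), MIP-1α, had 10.25, 9.89, 10.14 and 9.98 in OA arrays and 10.59, 10.62 and 10.72 in BSA arrays. Its groups did not overlap, and it differed by -0.57 ± 0.09 (SE; 1.49-fold lower; adjusted p 0.00442). Without BSA replicate 3 the adjusted p was 0.0512 for Ccl4 and 0.0797 for Ccl3, while Ccl5 passed whichever array was left out. The annotated spans of Ccl3 and Ccl4 overlap, and signal from shared transcript sequence was not tested.

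Saa3 (chr7:46711998-46719615), an acute phase apolipoprotein that macrophages make under inflammatory stimuli, was in none of the lists and showed the lowest difference among the fallen genes. It had 6.87, 6.64, 6.92 and 6.77 in OA arrays and 7.79, 7.74 and 7.80 in BSA arrays. The difference was -0.98 ± 0.14 (SE; 1.97-fold lower; adjusted p 0.00161), and it passed whichever array was left out. Mx1 (chr16:97447035-97462906), an interferon-induced GTPase, was at a low level throughout, with 3.80, 3.93, 4.00 and 3.97 in OA arrays and 4.52, 4.61 and 4.5 in BSA arrays. The OA levels lay just under the median of all genes (4.24 in OA arrays, 4.25 in BSA arrays) and the BSA levels just above it. Its difference was -0.62 ± 0.12 (SE; 1.53-fold lower; adjusted p 0.0289), and it lost its call whichever of the 7 arrays was left out (adjusted p 0.051 to 0.202).

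Mx1 was the 1 gene of 28 interferon-stimulated genes to fall, beside 0.0502% of all genes, and none rose. The list median was -0.21, and 27 of the 28 differences were below 0, beside 49.9% of all genes. At an unadjusted p under 0.05, 10 were lower, beside 2.79%, and in 3 of the 28 all OA arrays were below all BSA arrays, beside 3.5%. In all other members of the list the arrays overlapped between the groups. Gbp5, a guanylate-binding protein, had 3.70, 3.56, 3.34 and 4.16 in OA arrays and 4.04, 4.60 and 4.59 in BSA arrays (-0.72, adjusted p 0.211), and Ifit1 averaged 5.67 ± 0.33 in OA and 6.03 ± 0.07 in BSA arrays (-0.36, adjusted p 0.94). The mean of the list was 5.42 to 5.69 in OA arrays and 5.75 to 5.84 in BSA arrays.

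Other cytokine genes gave values that did not pass over all genes. Tnf had 9.33, 9.29, 9.19 and 9.30 in OA arrays and 9.49, 9.55 and 9.72 in BSA arrays; the groups did not overlap, and the difference was -0.31 (95% interval -0.48 to -0.13, adjusted p 0.40). Acod1, which makes itaconate, averaged 7.45 ± 0.14 in OA and 8.04 ± 0.13 in BSA arrays (-0.59, adjusted p 0.0835). Clec4e, the receptor Mincle, averaged 7.26 ± 0.11 in OA and 7.84 ± 0.06 in BSA arrays (-0.58, adjusted p 0.0559). Il1b differed by -0.36 (adjusted p 0.835), Ccl2 by -0.43 (adjusted p 0.799) and Cxcl2 by -0.22 (adjusted p 0.878). Il6 was at the bottom of the scale in both groups, at 1.72 in OA and 1.72 in BSA arrays. With the variance trend and robust moderation together, 11 further genes were lower and 4 higher. The lower ones were Tnf (adjusted p 0.0457), Acod1, Clec4e, Icam1, Cd40, Sc5d, the cystine transporter gene Slc7a11, Gclm, Rasgef1b, H2-M2 and Rassf4. The higher ones were Slc37a2, Enc1, the glutamine synthetase gene Glul and Cd300a.

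No gene of the stress and identity lists passed. Of 32 gene lists, 25 had 0 members past limma's test, which 0.0702% of all genes passed. In the list of PERK, ATF4 and CHOP targets (36 genes, median -0.10), 0 genes were higher and 4 lower at an unadjusted p under 0.05, beside 2.86% higher and 2.79% lower of all genes. Below 0 were 26 of the 36, beside 49.9% of all genes, and 10 were above. Every OA array lay below every BSA array in 8 of the 36, beside 3.5% of all genes. The reverse held in 2, beside 3.52%. Ddit3, which encodes CHOP, had 6.55, 6.44, 6.61 and 6.59 in OA arrays and 6.45, 6.79 and 6.73 in BSA arrays, which overlapped, with a difference of -0.11 (95% interval -0.33 to 0.11). Atf4 differed by -0.34 (adjusted p 0.361) and Trib3 by 0.03. Among 21 endoplasmic reticulum chaperones (median -0.01), 0 differed at an unadjusted p under 0.05 in either direction, and Hspa5, BiP, differed by 0.05 (interval -0.11 to 0.22). Among 20 XBP1 and degradation genes (median -0.03) 1 was lower, and Xbp1 differed by -0.02. For Hspa5, Ddit3 and Xbp1 the interval thus excluded a rise of 2-fold.

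The NRF2 target list (21 genes) had a median of -0.09, with 18 of 21 differences below 0, beside 49.9% of all genes, and 6 lower at an unadjusted p under 0.05. For this list and those that follow, the share of all genes at that threshold was 2.86% higher and 2.79% lower. Every OA array lay below every BSA array in 6 of the 21 NRF2 targets, beside 3.5% of all genes. The reverse held in 0, beside 3.52%. Slc7a11, the cystine transporter, differed by -0.58 (adjusted p 0.0785), and Hmox1, heme oxygenase 1, by -0.19 (adjusted p 0.799). With the variance trend and robust moderation together, the list members Slc7a11 and Gclm passed as lower. The LXR target list (16 genes) had a median of 0.04 and 1 gene higher at an unadjusted p under 0.05. Its cholesterol exporters Abca1 and Abcg1 differed by -0.15 and 0.03. Macrophage identity genes (25, median 0.01) had 2 higher, cell cycle genes (33, median 0.03) 1 higher, and respiratory chain subunits (30, median -0.02) and housekeeping genes (16, median -0.04) 0 in either direction. Glycolysis and hypoxia genes (26, median -0.07) had 2 lower, fatty acid uptake and scavenger receptor genes (20, median -0.02) 4 lower, and FoxO-type catabolic genes (25, median 0.07) 3 higher. The remaining lists of macrophage function (AP-1 and Egr genes, alternative activation, lysosome and autophagy, heat shock, sphingolipid enzymes, acyltransferases) had medians between -0.05 and 0.03, and at most 2 members per direction at an unadjusted p under 0.05.

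SA, given at the same concentration and for the same time, was set against OA directly to see where the double bond goes with a different response. This was 1 pair of compounds, with p-values adjusted over all 19938 genes. SA against OA called 1131 genes (5.67%), 658 higher (3.3%) and 473 lower (2.37%) with SA. The 14 genes had been chosen on the OA arrays, which enter both contrasts, so their values are given side by side. Plin2 averaged 10.23 ± 0.05 in SA arrays (n = 4) and 10.34 ± 0.06 in OA arrays. That difference was -0.11 (95% interval -0.27 to 0.05, adjusted p 0.528), and Plin2 was 0.79 above BSA with SA and 0.90 above BSA with OA. Cpt1a averaged 7.01 ± 0.15 in SA and 7.45 ± 0.05 in OA arrays (-0.44, adjusted p 0.00255), and its difference from BSA was 0.55 with SA. Angptl4 averaged 4.87 ± 0.09 in SA and 5.80 ± 0.22 in OA arrays (-0.93, adjusted p 1.09e-05). Its difference of 0.17 between SA and BSA did not pass (adjusted p 0.653).

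Slco2b1 averaged 4.58 ± 0.12 in SA and 5.42 ± 0.11 in OA arrays (-0.84, adjusted p 7.02e-05) and differed by -0.04 between SA and BSA. Among the fallen genes, Insig1 averaged 9.35 ± 0.04 in SA and 7.81 ± 0.16 in OA arrays (1.54, adjusted p 6.13e-11), and Scd2 8.44 ± 0.04 in SA and 7.0 ± 0.09 in OA arrays (1.44, adjusted p 9.16e-10). Against BSA these were 0.88 and 0.48 higher with SA. Ccl5, Ccl4 and Ccl3 were 1.43, 1.31 and 1.10 higher in SA than in OA arrays, and 0.69, 0.61 and 0.53 higher in SA than in BSA arrays. The sterol enzymes Hmgcs1, Idi1 and Cyp51 were 0.49, 0.49 and 0.65 higher with SA than with OA (adjusted p 0.000591, 0.00264 and 0.000109), while against BSA they differed by 0.00, -0.15 and 0.09 with SA, with adjusted p-values of 1.0, 0.648 and 0.819. In the 18 sterol synthesis genes the median was 0.49 for SA minus OA and 0.15 for SA minus BSA. Tnf, which did not pass between OA and BSA, was 1.08 higher in SA than in OA arrays (adjusted p 1.11e-09).

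**Figure D4:**
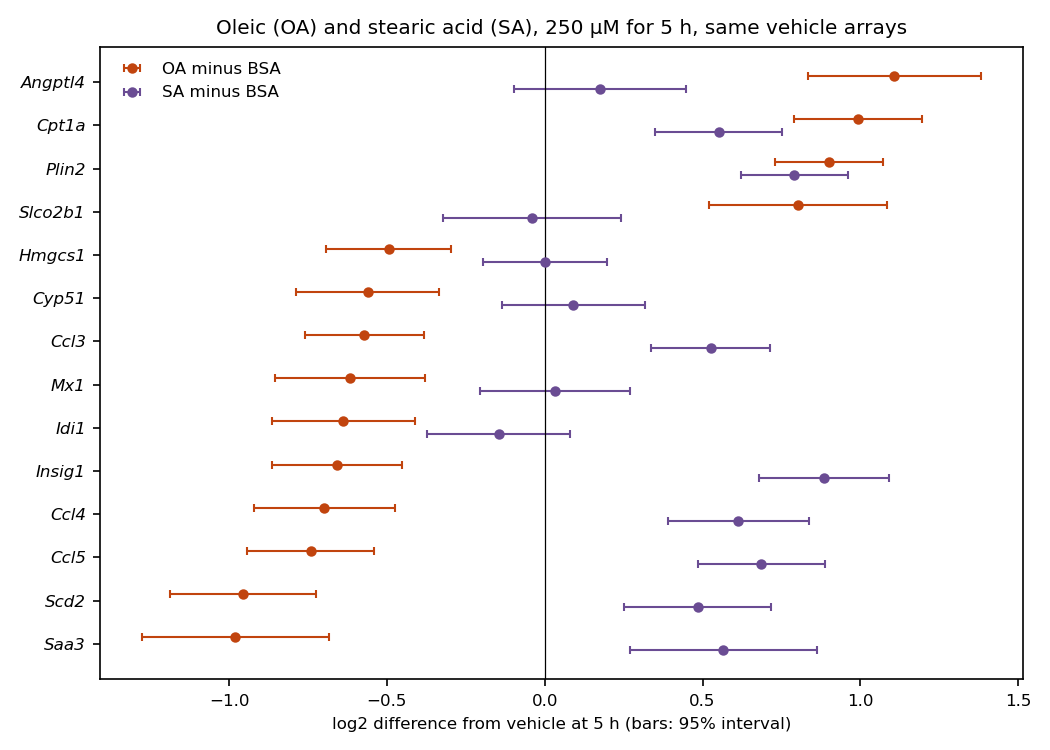
Log2 difference from the 3 BSA arrays (x axis) of the 14 genes in OA (upper point of each row, n = 4) and SA (lower point, n = 4) at 5 h; bars are 95% intervals. Both fatty acids are set against the same BSA arrays; the Plin2 intervals overlap, and for Insig1, Scd2, Saa3 and the 3 chemokines the OA points lie left of 0 and the SA points right of it.

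LPS, which shares the BSA arrays, called 4464 genes (22.4%), 1839 higher (9.22%) and 2625 lower (13.2%). No albumin concentration is recorded here for the LPS arrays. If those cells had none, LPS and the absence of albumin cannot be told apart in this contrast. Ccl5 and Ccl4 were both 2.88 higher with LPS than with BSA, Saa3 3.01 higher, Ccl3 1.40 higher and Mx1 5.61 higher, and OA was lower than BSA in all of them, by 0.57 to 0.98. Plin2, Slco2b1, Insig1, Cyp51 and Scd2 were lower with LPS than with BSA, by 0.70, 0.62, 0.62, 0.54 and 2.81. Of these, Insig1, Cyp51 and Scd2 also fell with OA, and Plin2 and Slco2b1 rose with OA.

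None of the 23 arrays is of vehicle at 20 h, so OA at 20 h was set against OA at 5 h. In that contrast 874 genes (4.38%) passed, 515 higher (2.58%) and 359 lower (1.8%). Angptl4 averaged 6.28 ± 0.12 at 20 h and 5.80 ± 0.22 at 5 h (0.48, adjusted p 0.0217). Slco2b1 averaged 6.14 ± 0.08 at 20 h and 5.42 ± 0.11 at 5 h (0.72, adjusted p 0.000739). Saa3 averaged 5.79 ± 0.27 at 20 h and 6.80 ± 0.13 at 5 h (-1.01, adjusted p 1.8e-05). All 3 thus stood farther from the 5 h vehicle at 20 h than at 5 h. The other 11 genes did not pass, with Plin2 at 0.13 (95% interval -0.03 to 0.28), Cpt1a at -0.10 (-0.29 to 0.09), Scd2 at -0.03 and Mx1 at -0.36 (adjusted p 0.0518). Time in culture and duration of OA cannot be told apart in these differences.

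**Figure D5:**
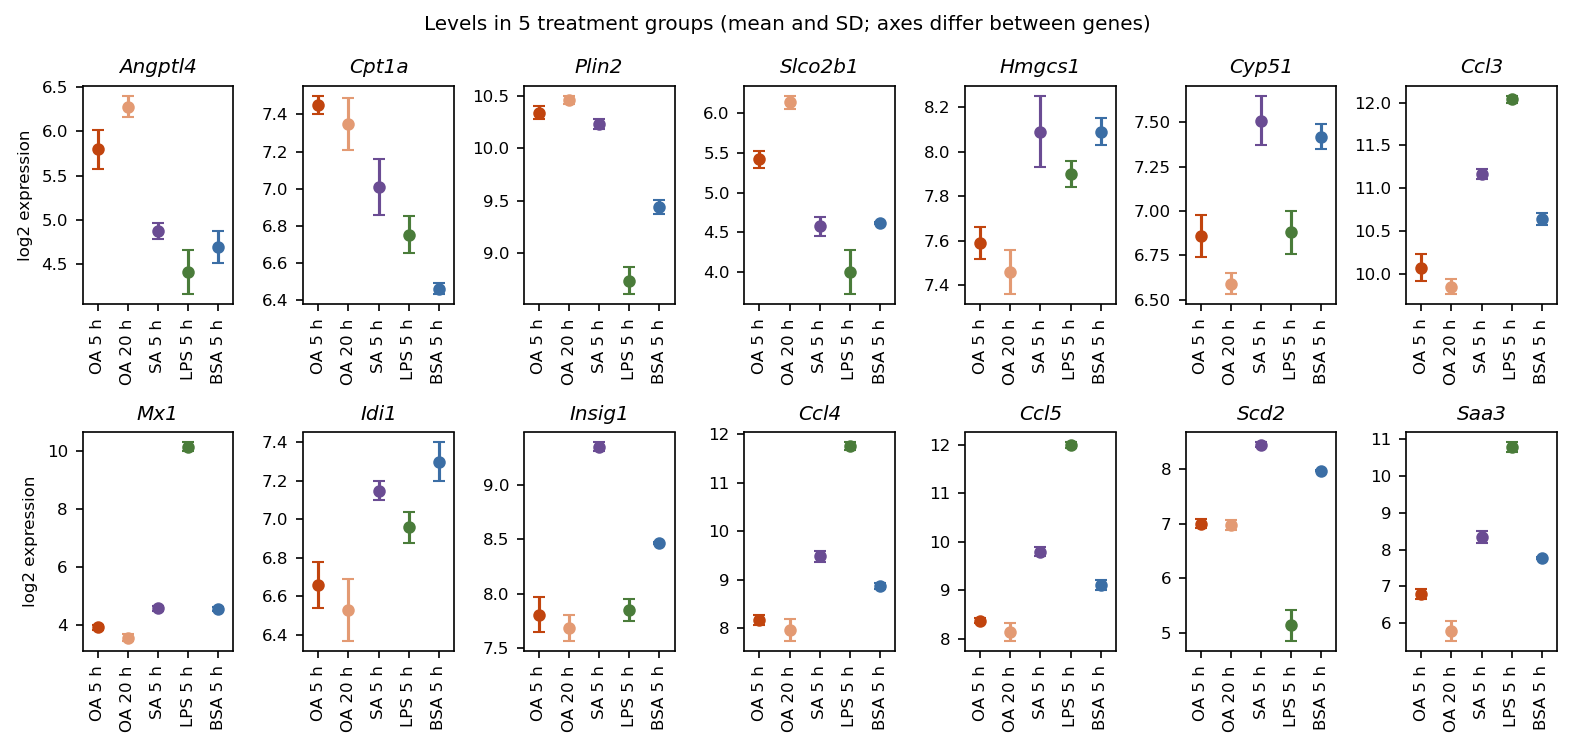
Mean log2 expression and SD (y axis, own range for each gene) of the 14 genes in OA at 5 h and 20 h, SA at 5 h and LPS at 5 h (n = 4 each) and BSA at 5 h (n = 3). Scd2 is at about the same level at both times of OA (7.0 and 6.97), and Saa3 is lower at 20 h (5.79) than at 5 h (6.80).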

How the data were processed

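Expression in mouse macrophages was measured on microarrays. The authors deposited a table of log2 expression values per probe set, made with RMA (background correction, quantile normalisation and summary of probes), per the submitters' processing notes; these notes also name limma, whose role there, like the versions, is not given in the sources used here. Of 35556 probe sets, 21789 had a single gene symbol in the platform annotation, 1621 had several and 12146 none or no entry; 21698 matched RefSeq by Entrez identifier. The probe set of highest mean level stood for each of 19938 genes. The values were fitted as deposited with limma 3.58.1 in R 4.3.3 (lmFit and eBayes) over all 23 arrays in 6 groups, with no covariate. P-values were adjusted by Benjamini-Hochberg over all genes of a contrast, with a threshold of 0.05. The fit was also run on simulated normal values, drawn independently for each gene and array. There it called 49.3% of true changes of 0.5 and 95.5% of those of 1.0, and 4.12% of calls were false. Dependence between genes or between replicate wells was not simulated. Number of arrays limits the precision. The genes named were the called ones whose groups do not overlap, up to 12 in each direction, 32 genes of interest (31 measured, 6 called) and cell type markers; other list members were named after their values were seen. Members and the 32 lists (654 measured genes) were chosen with earlier results of these data known. Alternatives covered moderation, scaling, probe set choice, filters, array weights, arrays entering the fit, the replicate number as a block, and omission of single arrays; a fit of all 35556 probe sets was added after seeing the data.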

Additional observations from a re-analysis of the deposited data

Results flagged for a closer look

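Of 81 groups of 4 arrays examined for an array far from the rest, 3 were flagged, and chance flags about 1 in 20 groups. Angptl4 was 4.73 in 1 SA array at 5 h, against 4.91 to 4.92 in the other SA arrays. Plin2 was 10.16 in 1 SA array at 5 h, against 10.25 to 10.26 in the others. Trib3 was 4.19 in 1 OA array at 5 h, against 4.47 to 4.51 in the others. Outside the genes tested, 1 probe set with no entry in the platform annotation passed when all probe sets of the table were fitted together, an alternative added after seeing the data. It averaged 6.74 ± 0.04 in OA and 7.24 ± 0.03 in BSA arrays (SD, n = 4 and 3), a difference of -0.50 ± 0.07 (SE, adjusted p 0.00795, limma).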

How the results depend on the processing

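Against 4 risen and 10 fallen genes, a variance trend with robust moderation gave 8 and 21, leaving out genes under the median level 9 and 17, quantile normalisation 7 and 11, array weights 7 and 13, median centring 4 and 8, and the 7 arrays alone 4 and 3. Leaving out each array gave 3 to 7 risen and 4 to 9 fallen genes. Genes changed at least 2-fold numbered 2 with median centring, with quantile normalisation and with a replicate block over all 6 groups, and 1 to 3 with each array left out. Replicate numbers showed no sign of pairing the samples (correlations of same-numbered deviations 0.01, -0.054 and 0), which does not establish that they are unpaired. A replicate block over 6 groups gave 5 risen and 11 fallen genes, and over the 7 arrays alone limma called 0 risen, 0 fallen and 0 changed 2-fold, with 546 higher and 440 lower at an unadjusted p under 0.05. With that block on 7 arrays, little is left to estimate the spread. OA replicate 4 has no BSA array of its number and adds nothing to the difference. In the fit of the 7 arrays alone Plin2, Cpt1a, Angptl4, Slco2b1, Ccl5, Saa3 and Scd2 passed, and Insig1 (adjusted p 0.175), Idi1 (0.175), Ccl4 (0.0723), Ccl3 (0.297), Mx1 (0.119), Cyp51 (0.233) and Hmgcs1 (0.25) did not. The fit of SA and OA at 5 h alone gave 405 genes higher and 255 lower with SA. Among genes near 0 that did not pass, the sign changed with arrays left out: Abcg1 ran from -0.03 to 0.114, Il6 from -0.115 to 0.067, Trib3 from -0.088 to 0.109, Xbp1 from -0.077 to 0.04 and Ccnd1 from -0.013 to 0.15. Il6 was 0.011 with median centring, and Trib3 -0.006 with the block over 6 groups. Of 736 settings of single genes, 660 kept direction and side of the threshold. The causes were not tested.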
